A study of Mus musculus with 20 samples.

Results

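The macrophage genes described here are 10 genes widely used to recognise macrophages in mouse tissue: C1qa, C1qb, C1qc, Cd68, Adgre1, Csf1r, Cd14, Mrc1, Cd163 and Lyz2. They were chosen by symbol, with earlier results of these data known. All 10 were found among the 51789 genes of the deposited table. All 10 also passed the filter on low values (at least 1 FPKM in at least 5 of the 20 libraries), as did 16383 genes in all. FPKM counts fragments per kilobase of transcript, relative to the mapped fragments of the library, so levels of different genes can be set side by side. Values below are FPKM after scaling each library by a single factor, called scaled FPKM.

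RNA was measured in the nucleus pulposus (NP), the soft core of the intervertebral disc, and in the annulus fibrosus (AF), the layered collagen ring that encloses it, in BL6 mice aged 24 months. From 18 months of age and for 6 months, mice received weekly intraperitoneal injections of DMSO (vehicle) or of MDL-800, a small-molecule activator of the deacylase SIRT6, in the same amount of DMSO. All animals therefore received DMSO, and no uninjected or younger group entered the comparisons. There were 4 groups of 5 libraries: NP vehicle (libraries 1, 2, 3, 5 and 6), NP MDL-800 (15, 18, 19, 20 and 22), AF vehicle (8, 9, 10, 12 and 13) and AF MDL-800 (25, 27, 28, 29 and 30). The labels speak of primary cells, whereas the extraction protocol describes tissue dissected under a microscope. No label gives the sex of the animals or states whether each library is a separate animal or a pool, so p-values measure the spread between libraries, which may be partly technical.

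Macrophages are phagocytes that take up debris and dying cells, present antigen and secrete complement and cytokines. Their survival depends on CSF1R, the receptor for the growth factors CSF1 and IL-34, and their identity on transcription factors that include PU.1, encoded by Spi1. The healthy NP has no blood vessels and is regarded as a tissue with few leukocytes, whereas the outer AF borders vessels, ligament and bone marrow. In bulk tissue, fewer macrophages and less RNA of a gene per macrophage cannot be told apart.

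Depth, estimated from the steps between low FPKM values, ranged from about 13000000 to 22500000 fragments per library. As a check of the tissue labels, 7 of 8 NP marker genes were called higher in NP than in AF among vehicle libraries, with Nog called lower, and 7 of 8 AF marker genes were called lower, with Fmod not called (0.48, SE 0.22; limma adjusted p = 0.0946). The NP markers were nevertheless present in AF libraries: their summed level was 2490 to 15100 in AF vehicle and 3650 to 7510 in AF MDL-800, against 25600 to 32900 in NP. AF vehicle library 9 had the highest of these AF sums. NP vehicle library 6 stood apart from the other NP vehicle libraries in leukocyte genes, as described below with the results it touches.

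The C1q genes lie side by side on the minus strand of chromosome 4 (GENCODE release 21 on GRCm38, the mm10 assembly): C1qb at 136880129 to 136886187, C1qc at 136889804 to 136893065 and C1qa at 136895917 to 136898803, all within 18675 nucleotides. Mrc1 lies on chromosome 2 (14229392 to 14332057, plus strand), Lyz2 on chromosome 10 (117277331 to 117282321, minus strand), Cd68 on chromosome 11 (69664213 to 69666153, minus strand), Adgre1 on chromosome 17 (57358691 to 57483527, plus strand) and Cd163 on chromosome 6 (124304656 to 124330527, plus strand). Positions of Csf1r and Cd14 are not given here. All 10 are protein-coding. Csf1r overlaps Hmgxb3 on the opposite strand, whose level was 5.82 to 10.1 over the 20 libraries, and whether strand was used in assigning reads is not given in the sources used here. Lyz2 has a close paralog, Lyz1, and how reads shared between such copies were assigned is likewise not given.

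RefSeq promoter sequences (GRCm38.p6) were matched for 6 of the 10 genes, and those 250 bases before the start were searched on both strands for AGGAAG, whose reverse complement is CTTCCT, a core bound by ETS factors such as PU.1. This motif was chosen with the sequences in view. It was found in 4 of 6 windows, those of C1qb, C1qc, Mrc1 and Lyz2, and in 29.5% of 32851 promoters of the same length. The overlapping core GAGGAA, with reverse complement TTCCTC, was also found in 4 of 6, against 23.3% of all promoters. These were the windows of C1qb, C1qc, Mrc1 and Cd68. Lyz2 therefore held only AGGAAG, and Cd68 only GAGGAA. The windows with AGGAAG are printed because their genes are among the 6 with the largest difference between tissues. Each is written 5′ to 3′ on the strand of the gene, with the matches in capitals. The C1qb window is printed whole, and 151, 22 and 49 bases at the 3′ ends of the C1qc, Mrc1 and Lyz2 windows, which lie inside the annotated genes, are left out and hold no match. C1qb is at chr4:136886201-136886450 (1 match), C1qc at chr4:136893066-136893164 (2 matches), Mrc1 at chr2:14229164-14229391 (3 matches) and Lyz2 at chr10:117282322-117282522 (2 matches).
C1qb: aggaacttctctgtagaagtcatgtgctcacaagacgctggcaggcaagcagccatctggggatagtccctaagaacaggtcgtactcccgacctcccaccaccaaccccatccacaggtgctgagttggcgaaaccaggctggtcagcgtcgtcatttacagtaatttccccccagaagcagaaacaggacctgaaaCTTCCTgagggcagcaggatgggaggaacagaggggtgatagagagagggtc
C1qc: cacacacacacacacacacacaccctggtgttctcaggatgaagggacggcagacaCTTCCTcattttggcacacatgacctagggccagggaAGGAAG
Mrc1: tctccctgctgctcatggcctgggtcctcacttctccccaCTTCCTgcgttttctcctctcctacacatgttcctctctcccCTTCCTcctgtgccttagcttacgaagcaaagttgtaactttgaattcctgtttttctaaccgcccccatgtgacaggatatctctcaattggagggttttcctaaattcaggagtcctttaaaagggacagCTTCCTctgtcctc
Lyz2: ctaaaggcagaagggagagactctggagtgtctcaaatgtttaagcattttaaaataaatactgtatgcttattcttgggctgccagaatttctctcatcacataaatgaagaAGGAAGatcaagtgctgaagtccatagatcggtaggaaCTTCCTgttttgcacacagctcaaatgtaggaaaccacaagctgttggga
These matches describe the letters of the windows and do not show that a factor is bound there. The windows of Cd68 and Cd163 do not hold AGGAAG.

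Each macrophage gene was lower in NP than in AF. All 10 were called lower in NP in vehicle libraries (limma, adjusted p under 0.05), where 33.9% of the genes tested were called lower and 55.7% were called in either direction. All 10 were again called lower in NP in MDL-800 libraries, where 37.2% of genes were called lower and 62.8% either way. The median log2 difference of the 10 genes was -3.31 in each treatment, against -0.08 over all genes tested in each. The sizes fell into a group of 6 genes (C1qa, C1qb, C1qc, Lyz2, Mrc1 and Adgre1), at 14.3-fold to 28.1-fold lower in NP in vehicle libraries, and a group of 4 (Cd68, Cd14, Cd163 and Csf1r), at 1.97-fold to 3.35-fold lower. The 2 groups were formed after their values were seen.

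**Figure D1:**
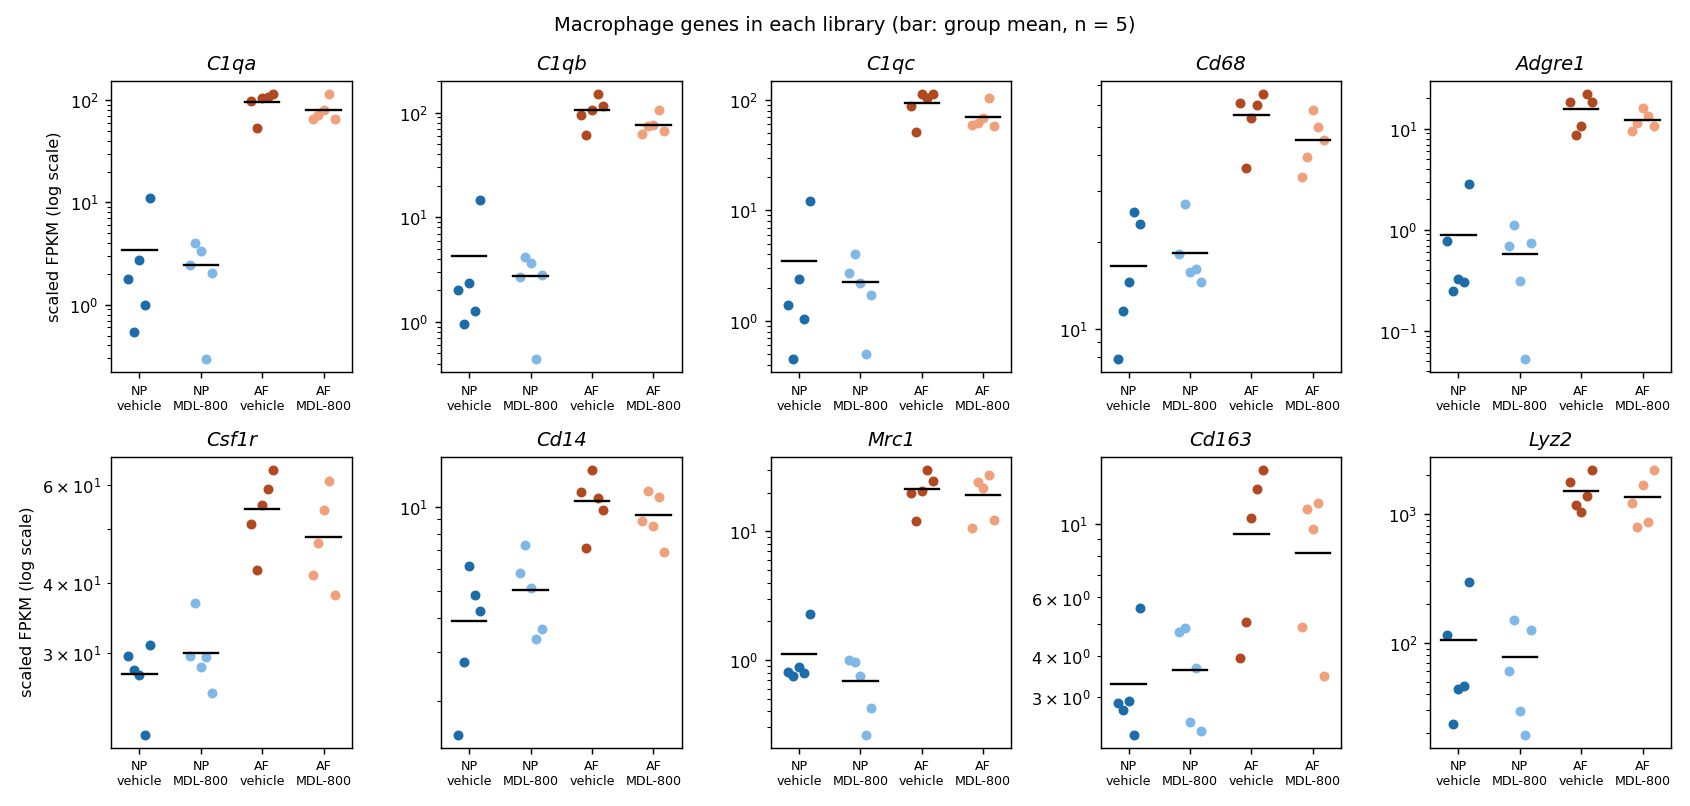
Scaled FPKM (log axis) of each macrophage gene in the 20 libraries, in 4 groups of 5; each point is a library and each bar a group mean. All C1qa points of AF (53.28 to 113.9) lie above all those of NP (0.2963 to 10.97), whereas Cd163 points of the tissues overlap.

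Of the 10 genes, the C1q chains had the largest log2 differences between tissues in both treatments; by the ratio of mean levels, Mrc1 (28.1-fold) was slightly above C1qb (28.0-fold) in MDL-800 libraries. C1qa, C1qb and C1qc encode the A, B and C chains of C1q, the recognition protein of the classical complement pathway, which in most tissues is made mainly by macrophages. C1qa stood at 1.77, 0.547, 2.74, 0.996 and 11.0 in NP vehicle libraries 1, 2, 3, 5 and 6, and at 97.8, 53.3, 105.7, 107.4 and 113.9 in AF vehicle libraries 8, 9, 10, 12 and 13. In MDL-800 libraries it stood at 2.45, 3.97, 3.36, 0.296 and 2.06 in NP libraries 15, 18, 19, 20 and 22, and at 65.0, 71.5, 79.4, 113.8 and 65.8 in AF libraries 25, 27, 28, 29 and 30. Every AF library was above every NP library, and within NP, vehicle library 6 was the highest and MDL-800 library 20 the lowest. The log2 difference was -4.83 (SE 0.48; limma adjusted p = 2.168e-05) in vehicle and -4.65 (SE 0.33; limma adjusted p = 1.844e-06) in MDL-800 libraries.

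C1qb and C1qc followed C1qa. C1qb was 4.27 ± 5.89 (SD, n = 5) in NP vehicle and 105.9 ± 32.3 in AF vehicle, a log2 difference of -4.79. C1qc was 3.50 ± 4.94 and 93.5 ± 25.4, a log2 difference of -4.85. The NP SDs exceed the means because library 6 stood at 14.8 for C1qb and 12.2 for C1qc, while the other 4 libraries lay from 0.959 to 2.35 and from 0.454 to 2.40. In NP the lowest C1qa value corresponds to about 5 fragments and the highest to about 179, so NP levels of the C1q genes rest on few fragments.

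The 3 chains were measured at nearly equal levels per length in AF. The ratio of C1qb to C1qa lay between 0.931 and 1.4 over the AF libraries, and that of C1qc to C1qa between 0.857 and 1.06. In NP, where the counts are small, the ratios spread from 0.856 to 1.75 and from 0.652 to 1.68. Across libraries the chains moved together: Pearson's r of C1qa and C1qc was 0.979 over 10 AF libraries (Spearman's rho 0.952; permutation p = 7e-05 and 0.00012, Benjamini-Hochberg adjusted p = 0.00367 and 0.0063 over 105 pairs), and 0.98 without the libraries farthest out, 9 and 13. In the 10 NP libraries r was 0.977 (rho 0.939; permutation p = 2e-05 and 0.00024, adjusted p = 0.00042 and 0.00455 over 105 pairs), and 0.945 without libraries 2 and 6. These correlations pool vehicle and MDL-800 libraries of a tissue, because 5 libraries of a group are too few for a correlation of their own.

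Mrc1 and Adgre1 were near the floor in NP. Mrc1 encodes the mannose receptor CD206, an endocytic receptor of resident and alternatively activated macrophages. It stood at 0.815, 0.753, 0.890, 0.799 and 2.29 in NP vehicle libraries 1, 2, 3, 5 and 6, and at 19.9, 12.0, 20.6, 30.0 and 24.9 in AF vehicle libraries 8, 9, 10, 12 and 13. The tissues did not overlap, and the log2 difference was -3.40 (SE 0.25; limma adjusted p = 5.172e-06). In MDL-800 libraries the mean of Mrc1 was 0.683 ± 0.329 (SD, n = 5) for NP and 19.2 ± 7.39 for AF, a log2 difference of -3.52.

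Adgre1 encodes F4/80, the surface protein by which mouse macrophages are most often stained. It stood at 0.772, 0.248, 0.324, 0.306 and 2.82 in NP vehicle libraries 1, 2, 3, 5 and 6 and at 18.5, 8.72, 10.8, 22.0 and 18.4 in AF vehicle libraries 8, 9, 10, 12 and 13. NP library 6 was again highest in NP, and still below every AF library. The log2 difference was -3.21 (SE 0.34; limma adjusted p = 3.297e-05) in vehicle and -3.09 (SE 0.20; limma adjusted p = 1.37e-06) in MDL-800 libraries.

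Lyz2, which encodes lysozyme, an enzyme that cleaves bacterial cell walls, was the most abundant of the 10 in every group. It is expressed by macrophages and also strongly by neutrophils and monocytes. Lyz2 stood at 115.9, 23.6, 44.2, 46.0 and 296.2 in NP vehicle libraries 1, 2, 3, 5 and 6 and at 1769, 1163, 1036, 1372 and 2190 in AF vehicle libraries 8, 9, 10, 12 and 13. No NP library reached the lowest AF library, and the log2 difference was -4.35 (SE 0.57; limma adjusted p = 0.0001088). In MDL-800 libraries the mean of Lyz2 was 77.0 ± 58.2 (SD, n = 5) for NP and 1346 ± 585.6 for AF, a log2 difference of -4.40.

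**Figure D2:**
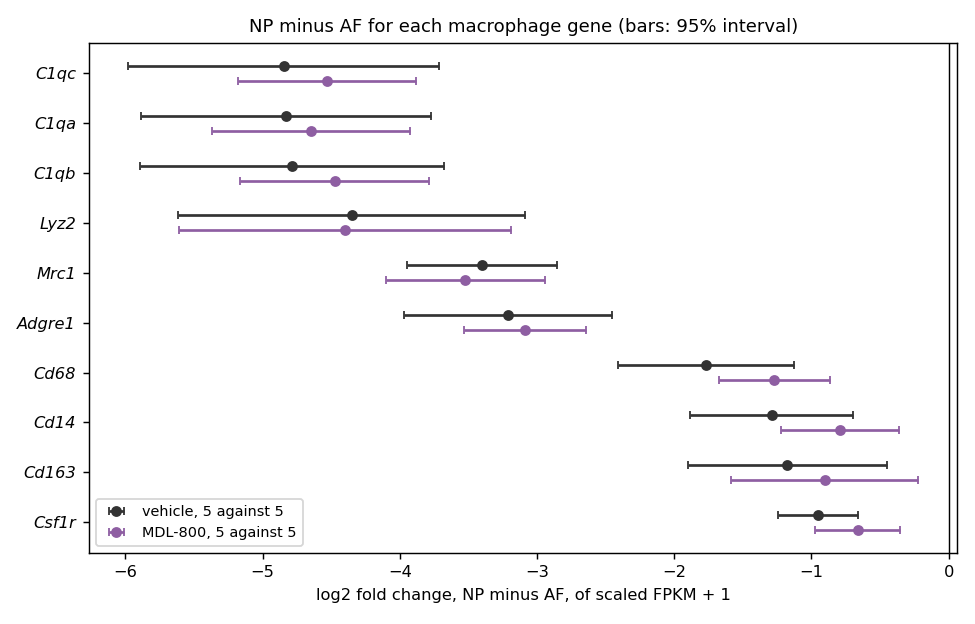
log2 fold change of scaled FPKM + 1, NP minus AF, for each macrophage gene in vehicle (dark) and MDL-800 (purple) libraries, 5 against 5; points are limma estimates and bars their 95% intervals. The vehicle estimates run from -4.85 for C1qc to -0.95 for Csf1r, and no interval reaches 0.

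The other 4 genes differed less between tissues, and of these Csf1r and Cd68 had the higher levels in NP. Csf1r encodes the CSF1 receptor, a tyrosine kinase on which macrophages depend. It stood at 29.7, 28.0, 27.4, 21.5 and 31.0 in NP vehicle libraries 1, 2, 3, 5 and 6, and at 51.2, 42.3, 55.2, 58.9 and 63.8 in AF vehicle libraries 8, 9, 10, 12 and 13. The tissues did not overlap, yet the difference was only 1.97-fold (log2 difference -0.95, SE 0.13; limma adjusted p = 0.000145). In MDL-800 libraries the mean of Csf1r was 30.0 ± 4.25 (SD, n = 5) for NP and 48.4 ± 9.29 for AF, a log2 difference of -0.66 (SE 0.14; limma adjusted p = 0.001806). With 1641 to 2856 estimated fragments per NP library, Csf1r was measured there with more fragments than the C1q genes.

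Cd68 encodes a lysosomal membrane glycoprotein that is abundant in macrophages and present at lower levels in other cells. It stood at 7.86, 11.6, 14.5, 25.5 and 23.02 in NP vehicle libraries 1, 2, 3, 5 and 6, and at 60.6, 36.1, 54.0, 59.9 and 65.2 in AF vehicle libraries 8, 9, 10, 12 and 13. The log2 difference was -1.77 (SE 0.29; limma adjusted p = 0.0004321) in vehicle and -1.27 (SE 0.18; limma adjusted p = 0.0001372) in MDL-800 libraries, with no overlap in either.

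Cd14, the co-receptor that hands bacterial lipopolysaccharide to TLR4, stood at 1.52, 2.78, 6.14, 4.82 and 4.24 in NP vehicle libraries 1, 2, 3, 5 and 6 and at 11.3, 7.09, 13.6, 10.8 and 9.73 in AF vehicle libraries 8, 9, 10, 12 and 13. The log2 difference was -1.29 (SE 0.27; limma adjusted p = 0.002004) in vehicle and -0.79 (SE 0.19; limma adjusted p = 0.004402) in MDL-800 libraries, where NP library 18 at 7.31 was above AF library 30 at 6.89. Under quantile normalization the MDL-800 difference was -0.43 and no longer passed (limma adjusted p = 0.0628).

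Cd163, the scavenger receptor for haemoglobin-haptoglobin complexes, had the weakest tissue difference by test. It stood at 2.89, 2.74, 2.92, 2.32 and 5.56 in NP vehicle libraries 1, 2, 3, 5 and 6 and at 3.95, 5.05, 10.4, 12.7 and 14.5 in AF vehicle libraries 8, 9, 10, 12 and 13, so that the groups overlapped. The log2 difference was -1.18 (SE 0.33; limma adjusted p = 0.01076) in vehicle and -0.90 (SE 0.31; limma adjusted p = 0.02461) in MDL-800 libraries. Under quantile normalization neither passed (-0.75, limma adjusted p = 0.0693, and -0.49, limma adjusted p = 0.203). In MDL-800 libraries it was also lost when any 1 of NP libraries 19 and 22 or AF libraries 27, 28 and 29 was left out (-0.82, -0.80, -0.77, -0.82 and -0.76), and without the filter on low values (limma adjusted p = 0.0587).

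Over the 10 genes, the groups of libraries did not overlap for 9 in vehicle, where 41% of the genes tested did not overlap, and for 8 in MDL-800 libraries, where 49.1% did not. Without NP vehicle library 6 and AF vehicle library 9 together, a choice made after seeing the data, all 10 were still called lower, with C1qa at -5.49 and Csf1r at -1.08. Quantile normalization shifted the median of all genes from -0.08 to 0.20 in vehicle libraries and turned the split of calls from 3577 higher and 5550 lower to 6474 higher out of 10397, and in it 9 of 10 macrophage genes were called lower. In MDL-800 libraries it shifted the median from -0.08 to 0.21 and the split from 4188 higher out of 10290 called to 6919 out of 11209, with 8 of 10 macrophage genes called lower.

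The unequal size of the differences can also be read as ratios within a library, which restate the levels above and are given without a test. In each library, the level of each gene was divided by the mean of C1qa, C1qb and C1qc. Csf1r was 0.49 to 0.766 times the C1q mean in AF vehicle and 0.565 to 0.724 times in AF MDL-800 libraries, but 2.45 to 42.9 times in NP vehicle and 9.06 to 71.5 times in NP MDL-800 libraries. The log2 ratio was higher in NP by 4.53 in vehicle and 4.55 in MDL-800 libraries. Cd68, Cd14 and Cd163 likewise separated the tissues in both treatments, with log2 ratios higher in NP by 3.66, 3.96 and 4.11 in vehicle libraries.

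For the genes of the larger difference the ratio moved less. Adgre1 was 0.0998 to 0.197 times the C1q mean in AF vehicle and 0.13 to 0.446 times in NP vehicle libraries (log2 ratio higher in NP by 0.78). For Mrc1 the difference was 1.15 in vehicle libraries, and for Lyz2 it was 1.13. In MDL-800 libraries these 3 genes differed by 0.29, 0.34 and 0.80. The ratios were set up after the levels were known.

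**Figure D3:**
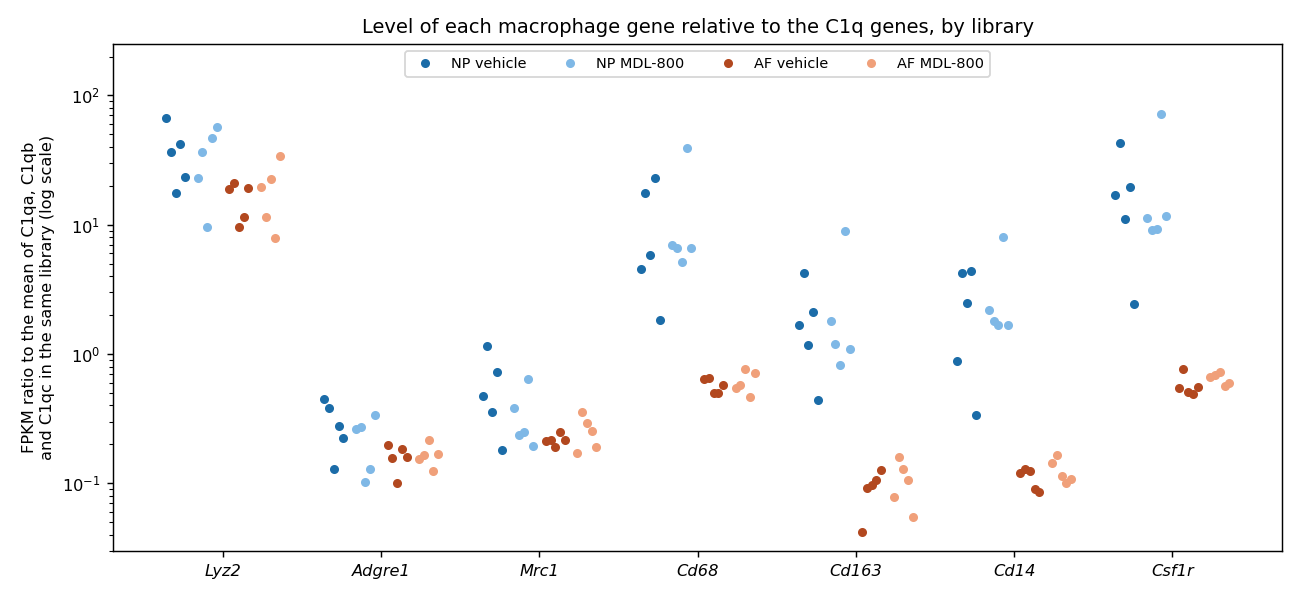
Ratio of each macrophage gene to the mean of C1qa, C1qb and C1qc in the same library (log axis), with 5 points for each of 4 groups. Csf1r, Cd14, Cd163 and Cd68 have all NP points above all AF points, whereas Lyz2, Adgre1 and Mrc1 overlap between tissues.

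The order of the levels differed accordingly. In AF vehicle libraries the order by mean was Lyz2, C1qb, C1qa, C1qc, Cd68, Csf1r, Mrc1, Adgre1, Cd14 and Cd163. Among neighbours in this order only Lyz2 and C1qb, and Csf1r and Mrc1, had ranges that did not overlap. In NP vehicle libraries the order was Lyz2, Csf1r, Cd68, C1qb, Cd14, C1qc, C1qa, Cd163, Mrc1 and Adgre1, and only Cd163 and Mrc1 did not overlap. The NP vehicle places of the C1q genes lean on library 6. C1qa was above Cd163 in 1 of the 5 libraries and C1qb above Cd14 in 2. By median, Cd14 (4.24) and Cd163 (2.89) stood above C1qb (2.04), C1qa (1.77) and C1qc (1.38). In MDL-800 libraries Lyz2, Csf1r and Cd68 again led in NP, and Lyz2 and the C1q genes in AF. There the C1q genes of NP stood below Cd14 and Cd163 by mean as well.

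Other genes of the same pathways were counted in 8 lists. Of their 101 entries that were tested, 87 were called lower and 4 higher in NP in vehicle libraries, with a median log2 difference of -2.61, and 86 and 4 in MDL-800 libraries, with a median of -2.43. The lists were drawn up with earlier results of these data known. In the CSF1R list of ligands, related cytokine receptors and myeloid transcription factors, 9 of 13 were called lower, 1 higher and 3 were not called (Il34, Csf2ra and Klf4). Spi1, encoding PU.1, was 4.84 ± 5.85 in NP and 62.9 ± 26.4 in AF (SD, n = 5; log2 difference -3.88, limma adjusted p = 0.0002199). Csf3r, the receptor of the neutrophil growth factor G-CSF, differed by -3.35. Maf, a transcription factor that many other cell types also use, was instead higher in NP, at 51.9 ± 2.86 against 27.0 ± 5.49 (log2 difference 0.94, limma adjusted p = 0.0001858).

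The CSF1R ligands, singled out after their values were seen, differed from each other. Csf1 was 5.55 ± 0.739 in NP and 24.5 ± 7.29 in AF vehicle libraries (SD, n = 5; log2 difference -1.92). Il34 was 4.85 ± 2.45 and 5.33 ± 1.62, a log2 difference of -0.17 that did not pass.

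In the CD14 and TLR4 list, which holds lipopolysaccharide receptors and their signalling adaptors, 11 of 14 were called lower in NP and 1 higher. Lbp, the lipopolysaccharide-binding protein that loads CD14, was 34.9 ± 12.0 in NP and 156.7 ± 62.0 in AF (SD, n = 5; log2 difference -2.09), and Cd180, a TLR4-related receptor of leukocytes, was 0.753 ± 0.740 and 9.45 ± 3.11 (log2 difference -2.61). The adaptor Ticam2 differed by -1.70, and in MDL-800 libraries the kinase Irak4 by -1.64. Tlr4 itself was higher in NP, at 42.9 ± 4.13 against 26.8 ± 4.37 (log2 difference 0.67, limma adjusted p = 0.0008547). Cd14 and Tlr4, partners in lipopolysaccharide sensing, therefore differed in opposite directions between tissues.

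In the list of C1q partners and receptors, 7 of 8 were called lower in NP and 1 higher. Serping1, the C1 inhibitor that stops the C1r and C1s proteases, was 3.93 ± 1.90 in NP and 273.8 ± 133.1 in AF (SD, n = 5; log2 difference -5.76, limma adjusted p = 4.981e-06), a larger difference than that of any C1q chain. C1ra, the protease that C1q activates, was 4.84 ± 0.968 and 30.3 ± 13.9 (log2 difference -2.32), and Cd93, a surface lectin of endothelial and myeloid cells, differed by -2.96. Lrp1, an endocytic receptor of many cell types, was higher in NP, at 228.5 ± 34.1 against 149.4 ± 26.8 (log2 difference 0.62, limma adjusted p = 0.005522).

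Most genes of the macrophage surface and resident macrophage lists were lower in NP. All 21 entries of the surface list were called lower in vehicle libraries and 20 in MDL-800 libraries, among them Fcer1g and Tyrobp, the signalling subunits of Fc and TREM receptors (log2 differences -4.39 and -4.22), and Fcgr3, a low-affinity Fc receptor (-4.02). Of 16 resident macrophage genes 14 were called lower in vehicle libraries (not Mertk, at -0.57, and F13a1, at -0.18) and 16 in MDL-800 libraries, led by Lyve1, the hyaluronan receptor of perivascular macrophages and lymphatic vessels, at 0.499 ± 0.192 (SD, n = 5) for NP and 29.3 ± 13.2 for AF (log2 difference -4.23), and by Gas6 (-3.98) and Pf4 (-3.92). In the scavenger and lysosome list 8 of 11 were called lower, led by the protease cathepsin S, Ctss (-4.54), and the scavenger receptor Msr1 (-2.74), with the fatty acid receptor Cd36 at -1.49 in MDL-800 libraries. Gpnmb, a glycoprotein of lysosomes and melanosomes, was higher in NP, at 96.1 ± 27.1 against 32.5 ± 9.53 (log2 difference 1.53, limma adjusted p = 0.0002274). The monocyte list had 7 of 8 lower, led by Chil3, Ly6c2 and Ifitm6 (-4.02, -3.98 and -3.97) and in MDL-800 libraries by Plac8 (-4.49), and the list of genes shared by leukocytes 10 of 10, led by Laptm5, Cd52 and Lcp1 (-4.04, -4.00 and -3.96). No called gene of these lists turned sign between the tissues without scaling or under quantile normalization, which left 20 of the 21 surface entries called lower in vehicle libraries.

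Markers of other cell types that lie around the disc were lower in NP as well. All tested entries of the lists for neutrophils (12 of 12), red cells (8), B and plasma cells (8), osteoclasts (6), bone (7), endothelium (8), skeletal muscle (7) and fat (6) were called lower in NP in vehicle libraries. Under quantile normalization 7 of 8 B and plasma cell entries and 5 of 6 osteoclast entries were. Summed neutrophil markers were 212 to 3350 in NP and 7960 to 20900 in AF vehicle libraries, red cell markers 48.7 to 184 and 655 to 2120, endothelial markers 6.13 to 11.0 and 57.1 to 130, and bone markers 10.1 to 93.8 and 249 to 1150. The part of these cells in the tissue difference of the macrophage genes was not tested.

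Within AF, Lyz2 did not follow the other macrophage genes. Over the 10 AF libraries, Pearson's r of Lyz2 with the other 9 ranged from -0.452 to 0.471, with a median of 0.0328, whereas r over all 45 pairs of the 10 genes had a median of 0.721. Lyz2 followed genes of neutrophils and of all leukocytes, which were chosen as partners after the values were seen. With S100a8, an abundant calcium-binding protein of neutrophils, r was 0.909 (rho 0.927; permutation p = 0.00038 and 0.0003, adjusted p = 0.0111 and 0.0063 over 105 pairs) and 0.867 without libraries 27 and 30. With Ptprc, which encodes the common leukocyte antigen CD45, r was 0.966 and rho 0.976 (permutation p = 4e-05 and 1e-05, adjusted p = 0.00367 and 0.00105). Without libraries 10 and 27, r with Ptprc was 0.984. Lyz2 also followed Spi1 by Pearson's r (0.838, adjusted permutation p = 0.0299) and not by rank (rho 0.794, adjusted permutation p = 0.0514). Without libraries 27 and 30, r with Spi1 was 0.706. For Spi1 with the other 9 genes, r ran from -0.449 for Cd14 to 0.366 for Cd68, and none passed.

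AF MDL-800 library 30, singled out after the values were seen, shows the separation for some of the genes. Its Lyz2, at 2182, was the highest of its group, and its S100a8, at 11830, the highest of all 20 libraries. Its Csf1r at 38.2, Cd163 at 3.49 and C1qc at 57.6 were the lowest of the same group. In NP, Lyz2 also followed S100a8 (r = 0.975, rho 0.939; permutation p = 4e-05 and 0.0002, adjusted p = 0.0006 and 0.00455 over 105 pairs; r = 0.955 without libraries 6 and 20).

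In NP, unlike the values in AF, Lyz2 also followed some of the other macrophage genes, and whether the tissues differ in this was not tested. With Adgre1, r was 0.928 (rho 0.952; permutation p = 1e-05, the smallest that 100000 permutations can give, and 0.00014, adjusted p = 0.00035 and 0.00455 over 105 pairs) and 0.93 without libraries 6 and 18. With C1qb, r was 0.801 (rho 0.758; permutation p = 0.00345 and 0.0152, adjusted p = 0.0213 and 0.0573), and C1qc and C1qa gave 0.789 and 0.77 (adjusted permutation p = 0.0217 and 0.026, and 0.076 and 0.112 by rank). Without libraries 6 and 18 these 3 fell to 0.545, 0.473 and 0.471, so the relation of Lyz2 to the C1q genes rests in part on them. Adgre1 and C1qb in turn followed S100a8 in NP (r = 0.883 and 0.746, rho 0.915 and 0.673; permutation p = 5e-05 and 0.00757 for r and 0.00059 and 0.0391 for rho, adjusted p = 0.000656 and 0.0258 for r and 0.00774 and 0.105 for rho), with r at 0.873 and 0.433 without libraries 6 and 20. C1qb followed S100a8 by r and not by rank. S100a8 was not the only such partner in NP. For C1qb, r was 0.838 with Spi1, 0.824 with the endothelial gene Pecam1 and 0.819 with Ptprc. Their adjusted permutation p was 0.0136, 0.0236 and 0.0164, and 0.0525, 0.0498 and 0.0431 by rank. Lower values were those with Csf1 and Lyve1, at 0.638 and 0.422. With Ptprc, r was 0.928 for Adgre1 and 0.985 for Lyz2 (adjusted permutation p = 0.00035 for each). Neutrophil and macrophage shares of the Lyz2 signal cannot be told apart in bulk tissue.

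**Figure D4:**
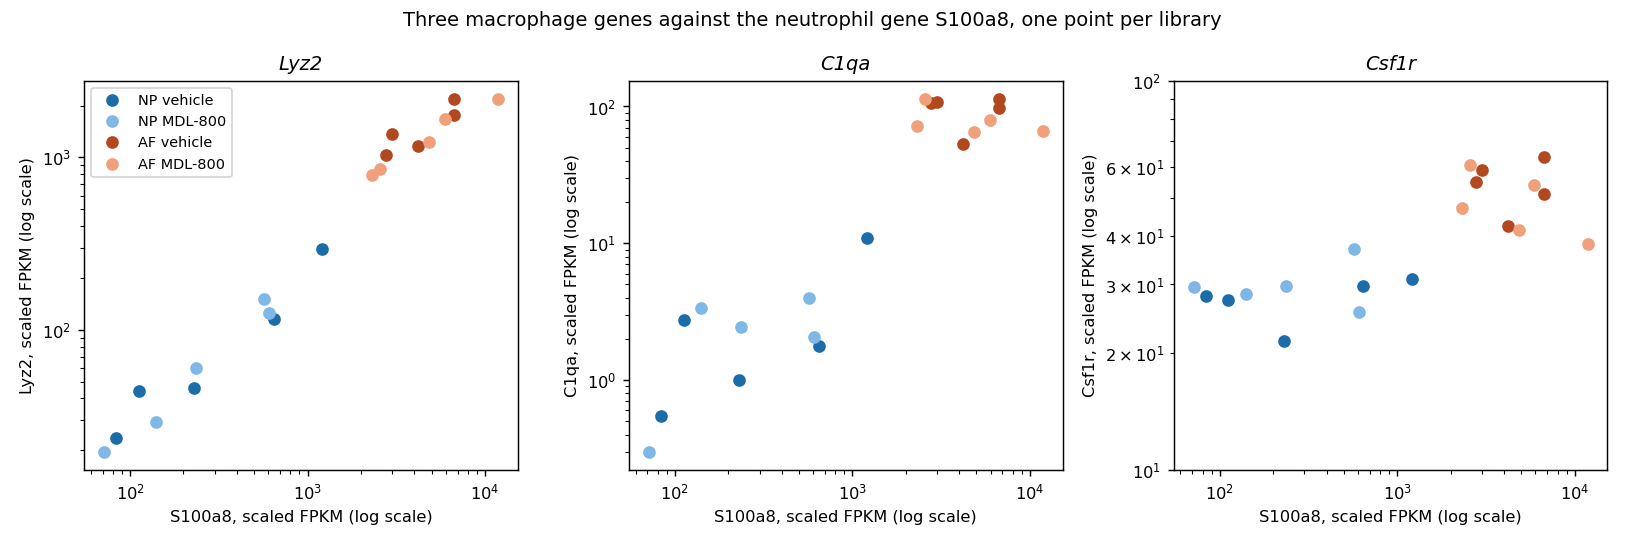
Lyz2, C1qa and Csf1r against the neutrophil gene S100a8, in scaled FPKM on log axes, 1 point for each of 20 libraries coloured by group. Lyz2 climbs with S100a8 within each tissue, while in AF the highest S100a8 value, 11830, goes with a C1qa of 65.8 and a Csf1r of 38.2.

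Csf1r followed the C1q genes in AF. Over 10 AF libraries, r of Csf1r with C1qa was 0.904 (rho 0.939; permutation p = 0.00053 and 0.00024, adjusted p = 0.0111 and 0.0063 over 105 pairs) and 0.925 without libraries 25 and 30. Over 10 NP libraries it was 0.418 and did not pass (rho 0.503; permutation p = 0.221 and 0.144, adjusted p = 0.33 and 0.233). In NP the highest correlation of Csf1r with another of the 10 genes was with Cd163 (r = 0.75, rho 0.879; permutation p = 0.0046 and 0.00151, adjusted p = 0.0217 and 0.0144), at 0.642 without libraries 6 and 18. Whether these correlations differ between the tissues was not tested.

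Mrc1 and Cd163 also went together in AF (r = 0.832, rho 0.855; permutation p = 0.00513 and 0.00279, adjusted p = 0.0299 and 0.0281 over 105 pairs; r = 0.961 without libraries 8 and 30). Each followed the growth factor gene Csf1 by Pearson's r and not by rank. For Mrc1, r was 0.857 and rho 0.648 (permutation p = 0.00313 and 0.0492, adjusted p = 0.0253 and 0.163), with r at 0.715 without libraries 9 and 25. For Cd163, r was 0.841 and rho 0.503 (permutation p = 0.00504 and 0.143, adjusted p = 0.0299 and 0.294), with r at 0.831 without the same libraries. Csf1 was not the only such partner. With Lyve1 in AF, r was 0.803 for Mrc1 and 0.922 for Cd163 (adjusted permutation p = 0.0426 and 0.0204, and 0.201 and 0.166 by rank). In NP, Mrc1 followed Csf1 by rank and not by r (rho 0.83 and r = 0.601, adjusted permutation p = 0.029 and 0.146). Cd163 and Csf1 passed by neither there.

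The genes most like the mean of the 10 were sought among genes with a mean of at least 5 in AF vehicle libraries. Over all 20 libraries, with group means taken off, these were Ctss (r = 0.907), Marcks (0.863), Ms4a7 (0.854), Clec4a1 (0.854), Arhgef3 (0.852) and Steap4 (0.847). Over the 10 AF libraries alone they were Cyfip1 (0.925), Gas7 (0.92), Uprt (0.916), Fnip1 (0.914), Steap4 (0.904) and Ptpro (0.904). They were picked for these values, which are therefore a description without a test. Ctss, Ms4a7 and Clec4a1 also stand in the lists of macrophage genes above.

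The comparison of MDL-800 with vehicle asks whether the SIRT6 activator altered these genes within each tissue. None of the 10 was called in NP, where 0.25% of the genes tested were called (41 of 16383), and none in AF, where 0% were (limma, adjusted p under 0.05). At an unadjusted p under 0.05 there were also 0 of the 10 in NP and 0 in AF, against 2311 and 270 of all genes. Vehicle and MDL-800 libraries overlapped for each of the 10 in both tissues, while 4.5% of genes in NP and 0.226% in AF did not overlap. These comparisons share their vehicle libraries with those between tissues.

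In AF each of the 10 estimates was below 0, with a median log2 difference of -0.23 against 0.01 over all genes tested. Of all 16383 genes tested, 7757 were below 0. The 10 genes are correlated in AF (median pairwise r 0.721), so these are not independent signs, and their shared direction was not tested. The range was -0.42 for C1qb to -0.15 for Cd14. C1qb stood at 96.1, 60.8, 106.4, 150.0 and 116.2 in AF vehicle libraries 8, 9, 10, 12 and 13 and at 62.1, 73.9, 75.8, 105.9 and 67.4 in AF MDL-800 libraries 25, 27, 28, 29 and 30. The highest MDL-800 library, 29, lay within the range of vehicle, and vehicle library 9 lay below all MDL-800 libraries. The log2 difference of C1qb was -0.42 (95% interval -0.93 to 0.08; limma adjusted p = 1), that of C1qc -0.39 (-0.92 to 0.13) and that of C1qa -0.25 (-0.76 to 0.25). For Csf1r the interval was -0.51 to 0.17 and for Cd163, the widest, -1.03 to 0.73.

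AF vehicle library 9 bears on these estimates. It was the lowest of its group for 8 of the 10 genes, and its summed NP markers, at 15090, were the highest of all AF libraries, with the other AF vehicle libraries at 2493 to 7108. Without it the difference was -0.45 for C1qa, -0.60 for C1qb, -0.59 for C1qc and -0.42 for Cd68. In that fit 4 of the 10, and 377 of all 16383 genes, had an unadjusted limma p under 0.05. None of the 10 passed the adjusted threshold. Of the fits without 1 AF library, this one had the most such genes among the 10, followed by 2 without MDL-800 library 29. Library 9 was singled out after the values were seen. Beside these estimates, the 12 neutrophil markers and the 7 bone markers were all above 0 in AF MDL-800 libraries (medians 0.12 and 0.76), and none of them was called. Under quantile normalization 4 of the 12 neutrophil markers were below 0. The other lists went both ways in AF. Below 0 were 5 of 7 muscle, 6 of 8 AF and 5 of 8 B and plasma cell markers (medians -0.28, -0.22 and -0.06). Above 0 were 7 of 8 red cell, 7 of 8 endothelial, 5 of 6 fat and 4 of 6 osteoclast markers. The part of NP tissue or of these other cells in the AF differences was not tested.

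In NP the signs were mixed, with 4 of the 10 above 0 (Cd68, Csf1r, Cd14 and Cd163) and a median log2 difference of -0.08, against -0.03 over all genes tested. The largest increase was that of Cd14, from 3.90 ± 1.80 to 5.03 ± 1.62 (SD, n = 5; log2 difference 0.35, 95% interval -0.28 to 0.98; limma adjusted p = 0.6361). The largest decrease was that of Mrc1, from 1.11 ± 0.662 to 0.683 ± 0.329 (log2 difference -0.30, 95% interval -0.75 to 0.14; limma adjusted p = 0.5353). Csf1r had the narrowest interval, -0.14 to 0.38. Those of the C1q genes, -1.33 to 1.14 over the 3 chains, and of Lyz2, -1.89 to 1.36, leave room for changes of more than 2-fold in either direction.

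The NP estimates of 5 genes turned sign with a single library. NP vehicle library 6 was the highest of its group for 8 of the 10 genes, and also for the summed markers of neutrophils (3350), red cells (184), B and plasma cells (51.7) and leukocytes in general (652). Without it the difference was 0.39 for C1qa, 0.41 for C1qb, 0.44 for C1qc, 0.14 for Adgre1 and 0.25 for Lyz2. MDL-800 library 20 was the lowest of its group for 7 of the 10, and without it C1qa was at 0.24 and Lyz2 at 0.12. Library 18 was the highest of the MDL-800 group for 9 of the 10. None of the 10 was called in any of these fits.

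**Figure D5:**
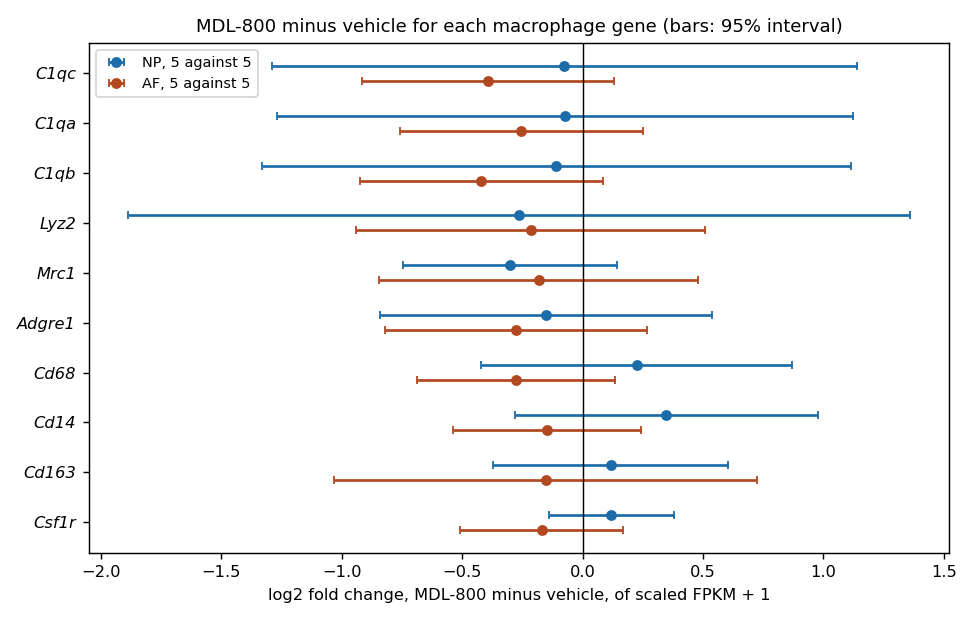
log2 fold change of scaled FPKM + 1, MDL-800 minus vehicle, for each macrophage gene in NP (blue) and AF (brown), 5 against 5; points are limma estimates and bars their 95% intervals. All 20 intervals include 0, and all 10 AF estimates lie below it.

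The effect of MDL-800 was not shown to differ between the tissues. In the fit of all 4 groups, 0 of the 10 genes were called for the difference of effects, NP minus AF, where 0% of all genes were called (limma; 0 of the 10 and 611 of 16383 genes at an unadjusted p under 0.05). The largest difference was that of Cd68, at 0.50 (95% interval -0.26 to 1.26; limma adjusted p = 0.9997), followed by Cd14 at 0.50 (-0.23 to 1.22). For the mean effect over both tissues 0 of the 10 were called, against 0.0244% of genes (0 of the 10 and 1494 of all genes at an unadjusted p under 0.05). There the estimates ran from -0.26 for C1qb (-0.92 to 0.39) to 0.10 for Cd14 (-0.26 to 0.46). On simulated data for the AF comparison, 61.5% of genes given a log2 change of 1 were found and 94.5% of those given a log2 change of 2. For NP the shares were 72.5% and 97%. The changed genes were drawn from all genes tested, so these shares are not those of the 10 macrophage genes. In the NP comparison the SE was 0.54 to 0.55 for the C1q genes and 0.73 for Lyz2, against 0.12 for Csf1r.

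The related lists gave the same counts under treatment. Of the 101 tested entries, 0 were called in NP, with a median of -0.05, and 0 in AF, with a median of -0.07. In AF, 18 of 21 entries of the surface list and 11 of 11 of the scavenger and lysosome list were below 0 (medians -0.17 and -0.17), and in NP 15 of 21 and 7 of 11 were (medians -0.09 and -0.08). In AF the CSF1R list instead had 9 of 13 above 0 (median 0.06) and the monocyte list 4 of 8 (median 0.03). The CD14 and TLR4 list had 11 of 14 below 0 in AF, and the C1q partners 5 of 8. Resident macrophage genes had 11 of 16 below 0 and the genes shared by leukocytes 6 of 10 (medians -0.12 and -0.01). None of these entries passed the test, and the direction of a list was not tested.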

How the data were processed

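Per the labels' protocols, the 20 libraries are stranded, were depleted of ribosomal RNA, and took 50 ng of input and 14 PCR cycles. The submitters' processing notes name STAR 2.7.11b and the mm10 build; the counting program, annotation and treatment of reads matching several genes are not given in the sources used here. The authors deposited FPKM values, rounded to 2 decimals, for 51789 genes.

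Count models do not suit FPKM and were left out. Each library was divided by its median ratio to the gene-wise geometric mean, taken over 11308 genes (factors 0.933 to 1.06). The scale tested was log2(scaled FPKM + 1), which understates changes of low genes; 16383 genes reached 1 FPKM in at least 5 libraries and were tested. Pairs of groups were compared with limma 3.58.1 (mean-variance trend, two-sided, only the 2 groups in the fit) in R 4.3.3, with Benjamini-Hochberg adjustment over all genes tested. A gene is called at an adjusted p under 0.05. The treatment effects across tissues came from a fit of all 4 groups. The tests were checked on simulated data.

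Depth was estimated from the steps of low values in single-exon genes of 400 to 1200 nucleotides, of which 79.6% to 84.6% lay within 0.15 fragments of a whole number. It enters no test. Correlations used 100000 permutations. Ratios were computed in Python 3.11.15.

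The macrophage genes, the lists and the tests were chosen with earlier results of these data known. From each related list, up to 3 called genes in each direction with the largest log2 difference and a mean of at least 1 in the higher group were named, apart from some that are not reported here. The numbers in the table's column names, shared between NP and AF, may be animal numbers, which the labels do not say. Deviations of same-numbered libraries did not pair them, which does not exclude a shared animal. The main fits used no block and treat all libraries as independent. Alternatives covered scaling, pseudocount, filter, weights, GC, marker covariates and leaving out each library.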

Additional observations from a re-analysis of the deposited data

Results flagged for a closer look

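In 40 groups of 5 libraries (10 genes in 4 groups), a lowest or highest library set apart by at least 0.71 of the group's range was sought. For normally distributed values chance gives about 2 such groups. These levels were not put on a log scale and need not be normal, so that number is a rough guide. There were 9 such groups. Of these, 5 were the genes C1qa (10.97, next 2.742), C1qb (14.75, next 2.347), C1qc (12.24, next 2.398), Adgre1 (2.824, next 0.7717) and Mrc1 (2.291, next 0.8903), all high in NP vehicle library 6, and the same library was high for Cd163 (5.56, next 2.924). The 10 genes are correlated, so these are not independent signs of a library that stands apart. In AF vehicle, C1qa was low in library 9 (53.28, next 97.76). C1qc was high in AF MDL-800 library 29 (103.8, next 68.58), and Cd68 in NP MDL-800 library 18 (27.01, next 18.17). The values of other cell types' markers in libraries 6 and 9 stand beside the results they touch, and their part in these gaps was not tested.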

How the results depend on the processing

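Over 22 to 31 alternatives per comparison, 0 of the 10 genes were called for any effect of MDL-800; the smallest limma adjusted p of any of them was 0.2812 in NP, 0.9995 in AF, 0.9219 for the difference between tissues and 0.3819 for their mean. All tissue differences kept their direction, with 9 to 10 genes called in vehicle and 8 to 10 in MDL-800 libraries; the exceptions, Cd14 and Cd163, are given above. A block for the number in the column names, added after seeing the files, left 10 called in vehicle (5 pairs) and 10 in MDL-800 libraries (3 pairs). Deviations of same-numbered NP and AF libraries correlated at -0.178 to 0.285 in vehicle and -0.176 to 0.17 in MDL-800, and 1 NP library in each group correlated best with its own number.

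Signs turned only among treatment differences that passed no test, and the cause was not tested. In NP, C1qc was at 0.0030 with a pseudocount of 0.1, and C1qa and C1qc at 0.011 and 0.0094 with red cell markers as covariate. Leaving out single libraries gave C1qa -0.35 to 0.39, C1qb -0.34 to 0.41, C1qc -0.36 to 0.44, Adgre1 -0.27 to 0.14 and Lyz2 -0.65 to 0.25, and in AF Cd163 -0.38 to 0.074. For NP minus AF, Adgre1 was at -0.025 with a pseudocount of 0.1, C1qa and Lyz2 at -0.072 and 0.0072 with the GC trend removed, Lyz2 at 0.24 and 0.072 with red cell or neutrophil markers as covariate, and C1qa, C1qb, C1qc and Adgre1 at -0.21, -0.043, -0.076 and -0.025 with Xist as covariate. Single libraries moved Lyz2 from -0.43 to 0.47, C1qa from -0.092 to 0.65, Mrc1 from -0.30 to 0.063 and Adgre1 from -0.012 to 0.41. For the mean of the tissues, Csf1r and Cd163 were at 0.0034 and 0.017 with library weights, and Cd163 at 0.029 with the GC trend removed; single libraries moved Cd14 from -0.0087 to 0.18, Cd68 from -0.13 to 0.063, C1qa from -0.30 to 0.069, C1qc from -0.37 to 0.024, Cd163 from -0.13 to 0.096, Lyz2 from -0.43 to 0.019 and Csf1r from -0.069 to 0.014.

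Depth limits NP most: an NP value of Adgre1 rests on 3 to 167 estimated fragments. Over all genes, calls in NP for MDL-800 ranged from 2 without vehicle library 3 or MDL-800 library 22 to 189 without vehicle library 6, against 41.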
